A study of Mus musculus with 6 samples.

Results

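Of the 3292 peaks of the target libraries, 1274 lay in the last 10% of a gene and are described here. A peak is a stretch of RNA that the authors called from reads of the AGO2 pull-down, and it is given by position and strand. Its position was read along the gene, following the peak's own strand from the upstream to the downstream end, and a peak was taken when its midpoint lay at 90% of the span or beyond. Only midpoints within exactly 1 nuclear protein-coding gene were placed, which left 3070 peaks in 1716 genes. The last 10% held 41.5% of these (exact Clopper-Pearson 95% interval 39.7 to 43.3), and the genes with such a peak numbered 872, or 50.8% of the genes with a placed peak. In what follows, "end peaks" are these 1274 peaks, and they are set beside the 1566 peaks of the gene interior, from 20% to 90% of the span, and the 230 peaks of the first 20%.

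The cells were a mouse embryonic stem cell line of genotype Spy3-Ago2, in which the AGO2 protein carries a Spy3 tag that SpyCatcher3 on a resin binds. The medium held serum and LIF, the cytokine on which such cells depend to stay undifferentiated, and plates were coated with gelatin. The series has 6 libraries in 3 groups of 2: the pull-down gave the miRNA and the target libraries, and whole lysate gave the input libraries. All groups share the line and genotype, an untagged control line was not analysed here, and the labels do not say whether replicates were separate cultures. The target peaks came as 1 list with no value per replicate and a score of 0 for every peak, so end peaks have neither a height nor a spread between replicates, and no test between samples could be made. Differences between peak groups below are descriptions with counting intervals, and peaks of the same gene are not independent.

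AGO2 is the Argonaute protein that holds a microRNA (miRNA) and, guided by it, binds messenger RNAs. Binding rests mainly on the seed, the stretch from base 2 to base 8 of the miRNA, which pairs with a matching site in the target. In animals such sites are known best from the 3' untranslated region, the stretch between the stop codon and the poly(A) tail, which is usually part of the last exon and so lies at the downstream end of the gene. The gene table used here has no exons or untranslated regions, and an end peak is therefore not assigned to either.

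Seeds of the most abundant miRNAs in AGO2 are shown, because such miRNAs are among the guides that would bring AGO2 to a site in an end peak. Mature sequences are those of RefSeq on GRCm38.p6, written 5' to 3' with the seed in capitals, for the 5 miRNAs with the largest share of the miRNA library counts.
miR-290a-5p: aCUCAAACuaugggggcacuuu
miR-92a-3p: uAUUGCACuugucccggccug
miR-182-5p: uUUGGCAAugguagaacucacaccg
miR-19b-3p: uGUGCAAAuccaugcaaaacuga
miR-16-5p: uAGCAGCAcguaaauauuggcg
miR-290a-5p, of the miR-290/miR-295 cluster that such stem cells express highly, took 24.1% of the counts in replicate 1 and 23.5% in replicate 2. miR-92a-3p held 7.45% and 7.03%, miR-182-5p 5.67% and 7.04%, miR-19b-3p 4.84% and 4.64%, and miR-16-5p 5.11% and 4.23%. Places 2 and 3 changed between the replicates, and so did places 4 and 5. Together the 5 held 46.8% ± 0.49 (SD, n = 2). Shares are those of single miRNAs and were not summed by seed. For example, miR-291a-3p and miR-295-3p, with means of 2.89% and 2.51%, share a seed that is not among those shown.

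The sequence of an end peak could be read only where it fell in a promoter window of RefSeq, and 2 of the 1274 did so whole and 1 in part. One of them lies in Lrp6, the gene of a WNT co-receptor, on the minus strand at chr6:134450904-134450955 (mm10), inside the window of the neighbouring gene Gm52921. It is 52 nt wide, and its midpoint lay 4453.5 nt from the downstream end of Lrp6, at 96.3% of the span. Read 5' to 3' on the peak strand, with no base singled out, it is as follows.
Lrp6 end peak: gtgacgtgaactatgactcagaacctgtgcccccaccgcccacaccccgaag
Its GC content was 61.5%. The 7-letter matches to the 5 seeds, GTTTGAG for miR-290a-5p, GTGCAAT for miR-92a-3p, TTGCCAA for miR-182-5p, TTTGCAC for miR-19b-3p and TGCTGCT for miR-16-5p, were searched on both strands, and these letters are not in this stretch. On opposite strands the miR-92a-3p and miR-19b-3p matches share their letters but for the last, GTGCAA. Of 32851 RefSeq promoter windows, 3.30% held any of the 5 in the same 52 nt of the window. The other end peaks touched by a window were in Gm52481, on chromosome Y, and, with 36 of 103 nt, in Rbfox2, the gene of a splicing regulator.

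End peaks crowded toward the very end of the gene. The 1% of the span next to the end, from 99% on, held 261 of them, against 65 between 90% and 91%, and counts of 116, 118, 174 and 209 led up to it from 95%. The median position was 97.0% of the span. In nucleotides, the median distance from the midpoint to the downstream end was 1064 nt (order-statistic 95% interval 989.5 to 1176.5), with quartiles of 390.1 and 2261 nt. Within 500 nt of the end lay 394 end peaks (30.9%), within 1000 nt 608 (47.7%), within 2000 nt 898 (70.5%) and within 5000 nt 1171 (91.9%), and 23 lay more than 10000 nt away. Peaks of the gene interior had a median distance of 11768 nt and those of the first 20% 52066 nt, as the division by position requires. The edge of 3 end peaks reached past the annotated end of the gene, read in the direction of the peak.

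**Figure D1:**
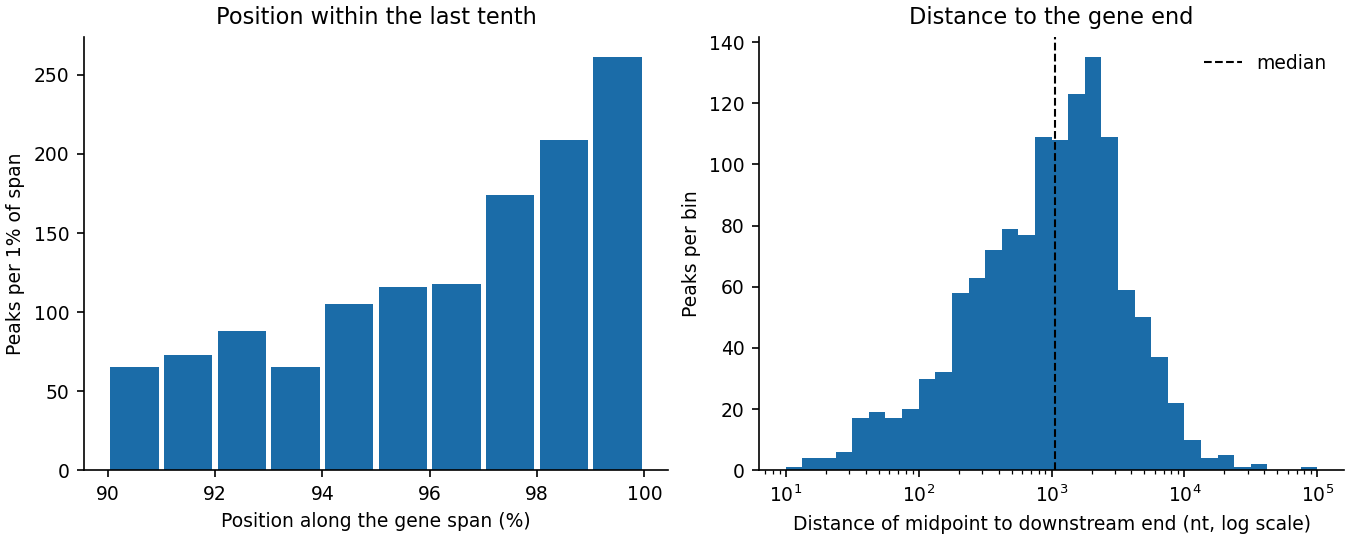
Position and distance of the 1274 end peaks. Left, the number of peaks (vertical axis) in each 1% of the gene span from 90% to 100% (horizontal axis), which is 65 in the first bar and 261 in the last; right, the number of peaks by distance of the midpoint from the downstream end in nt on a log axis, with the median of 1064 nt as a dashed line.

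The last 10% is a fixed share of very different genes, and its length ran from 43.9 nt to 130179 nt over the 872 genes, with a median of 3674 nt. Distance therefore grew with the gene, but less than in proportion to it. End peaks were split by gene span into 4 groups of 318 or 319. In the group with the shortest genes, of 439 to 19960 nt, the median distance was 343.5 nt, or a median of 4.52% of the span. In the next groups it was 1008.5 nt (spans of 20031 to 42620 nt) and 1771 nt (42662 to 83679 nt), and in the group with the longest genes, from 83703 to 1301793 nt, it was 2242.5 nt, where the median peak lay 1.73% of the span from the end. Across end peaks, distance and span had a Spearman rho of 0.57 (n = 1274), and since distance cannot exceed 10% of the span, this is a description of the set. The share of placed peaks that fell in the last 10% was 25.6% (interval 20.3 to 31.5) in genes of up to 5000 nt, 35.7% from there to 10000 nt, between 42.9% and 44.9% in the 3 classes from 10000 to 100000 nt, and 40.2% (36.1 to 44.4) in longer genes.

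**Figure D2:**
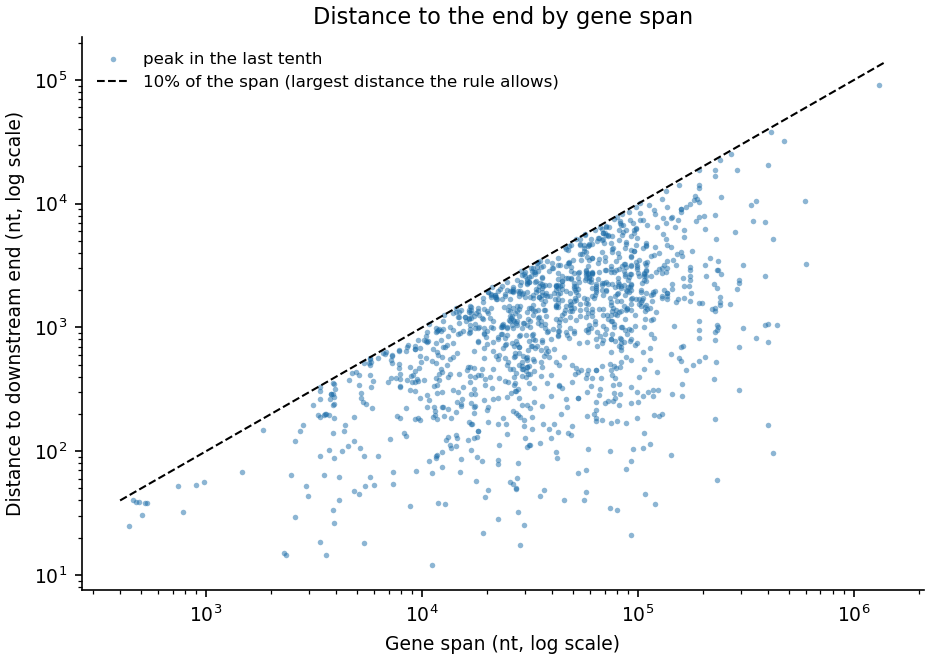
Distance of each end peak from the downstream end of its gene (vertical axis, nt, log scale) against the span of the gene (horizontal axis, nt, log scale), 1 point per peak. The dashed line is 10% of the span, the largest distance the definition allows; in the longest genes most points lie far below it, with a median of 2242.5 nt in the group with the longest spans.

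A fixed distance picks a related but different set. Of 1103 placed peaks within 2000 nt of the downstream end, 898 were end peaks, which is 81.4% of the near peaks and 70.5% of the end peaks. The other 205 lay in 156 genes with a median span of 3901 nt and none over 17939 nt. Peaks just inside the limit lay in Slc35b4, a nucleotide sugar transporter gene, at 90.01% of the span, in Acly, the ATP citrate lyase gene, at 90.03%, and in Lamp2, a lysosomal membrane protein gene, at 90.04%. Just outside lay a second Lamp2 peak at 89.95%, 1 in the histone H3 gene H3c8 at 89.94%, only 48.5 nt from its end, and 1 in the zinc finger gene Zfp473 at 89.90%. The 2 Lamp2 peaks have midpoints of 5657.5 and 5711.5 nt from the same end, so the limit can part neighbours.

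The end peak nearest to a downstream end was in Eef1g, the gene of a translation elongation factor subunit, at 12 nt. It was followed by peaks in Cfl1, the gene of the actin-severing protein cofilin, and in Gm52481, both at 14.5 nt. The Gm52481 peak lies on the strand opposite to its gene, so its distance is to the start of that gene. The Eef1g peak was 27 nt wide, the Cfl1 peak 34 nt and the Gm52481 peak 64 nt. The farthest lay in very long genes. The peak of Pde4d, a cAMP phosphodiesterase gene with a span of 1301793 nt, was 90772.5 nt from its end at 93.0% of the span. Those of Oxr1, Bcas3, Sntb1 and Gramd1b were 37668, 32193.5, 25437 and 22468 nt away, in spans of 240382 to 472949 nt.

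The median end peak was wider than the median peak of the gene interior or of the first 20%. The median width was 63 nt (order-statistic 95% interval 61 to 66) with quartiles of 49 and 95 nt, against 57 nt (55 to 59) in the gene interior and 50.5 nt (48 to 55) in the first 20% of the span. The interval for end peaks lies above both others, and those of the gene interior and the first 20% meet at 55 nt. A width of 100 nt or more was found for 291 end peaks, or 22.8% (20.6 to 25.2), for 227 interior peaks, or 14.5% (12.8 to 16.3), and for 16 peaks of the first 20%, or 6.96% (4.03 to 11.1). Along the gene, the median width was between 49 and 56.5 nt in each 10% of the span up to 70%. It was then 60 nt (55 to 65), 61 nt (58 to 65) and, in the last 10%, 63 nt. The intervals from 70% on overlap, so the width of end peaks was not set apart from that of the adjoining parts. In genes of at least 20000 nt the medians were 64 nt for 955 end peaks, 55 nt for 1057 interior peaks and 49 nt for 177 of the first 20%. How deeply each peak was covered by reads is not known here, and its part in width was not tested.

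**Figure D3:**
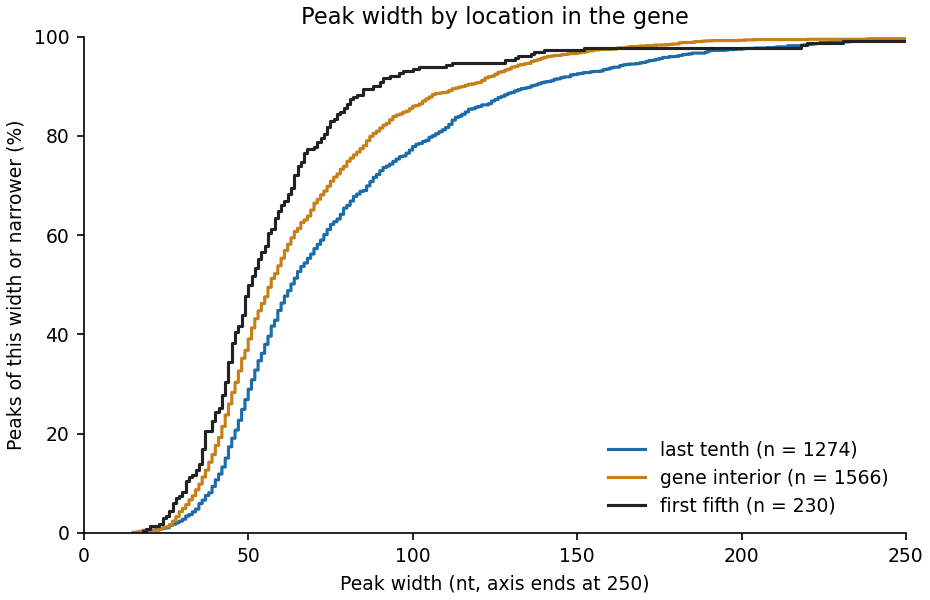
Cumulative share of peaks (vertical axis, %) of a given width or narrower (horizontal axis, nt, to 250 nt) for the 1274 end peaks, the 1566 interior peaks and the 230 peaks of the first 20%. The end peak line lies to the right of the other lines over the middle of the range, with medians of 63, 57 and 50.5 nt.

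Widths were also compared within single genes. Among 262 genes with an end peak and another placed peak, the median end peak was the wider in 148 (56.5%, interval 50.2 to 62.6), the narrower in 113 and equal in 1. The median difference, end minus other, was 6 nt (1 to 10), from medians of 66 and 61 nt. Width had no steady relation to distance among end peaks (Spearman rho -0.02, n = 1274): medians were 61 nt up to 250 nt and from 250 to 500 nt from the end, 71 nt (65 to 75) from 500 to 1000 nt, 67 nt from 1000 to 2000 nt, 61 nt from 2000 to 5000 nt and 57 nt (52 to 64) beyond.

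The widest end peak, 541 nt, lay in Plxna1, the gene of a semaphorin receptor, at chr6:89316958-89317498, with its midpoint 915 nt from the end. A 397 nt peak of Ankrd11, a chromatin regulator gene, lay 698 nt from the end, and a 368 nt peak of Slc6a6, the taurine transporter gene, 1118.5 nt. A further 368 nt peak, in Tet1, an enzyme gene of DNA demethylation, was 7313.5 nt from the end, and a 334 nt peak of Plekhm1, a gene of lysosome fusion, 1367.5 nt. Apart from the Tet1 peak, these lay within 1367.5 nt of the end.

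End peaks also lay close to each other. There were 402 pairs of neighbours in 225 genes, with a median midpoint distance of 351 nt (299 to 444) and quartiles of 129.5 and 1005 nt, against 2193.5 nt (1758 to 2564) for 689 pairs elsewhere in genes. The end pair median was 676 nt with peaks under 50 nt apart joined, and 960.5 nt when only 1 of the pair had to be an end peak. The definition keeps the end peaks of any gene within 10% of its span, while pairs elsewhere can lie farther apart. Closeness was therefore also counted peak by peak against any listed peak of the same strand. A neighbour with a gap under 500 nt was found for 426 end peaks, or 33.4% (30.8 to 36.1), for 20.4% (18.4 to 22.5) of interior peaks and for 16.1% (11.6 to 21.5) of those of the first 20%. With genes of at least 20000 nt alone, where the last 10% spans 2000 nt or more, the shares were 30.4% (27.5 to 33.4), 15.1% (13.03 to 17.4) and 12.4% (7.96 to 18.2). The last 10% of the span held 41.5% of placed peaks, and closeness at equal peak density was not tested, in long genes either.

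No gap in the whole list was smaller than 21 nt, and many were just above it. Of the 402 end pairs, 72 had a gap of 21 to 29 nt, 33 of 30 to 39 nt and 13 of 40 to 49 nt, which gives 118 (29.4%, interval 24.9 to 34.1) under 50 nt against 88 of 689 pairs elsewhere (12.8%, 10.4 to 15.5). End peaks with such a close neighbour were narrower, with a median of 56 nt (51 to 60) against 65 nt (63 to 68) for the rest. Peak numbers in the list ascend with position on each chromosome strand and run to 30438, of which the listed peaks are 10.8%, and numbers skipped between neighbours belong to no listed peak. Neighbouring end peaks carried consecutive numbers in 201 of 402 pairs (interval 45.0% to 55.0%), against 36.0% (32.4 to 39.7) elsewhere. With gaps under 500 nt the shares were 70.1% (64.0 to 75.7) and 73.1% (66.4 to 79.1), and their intervals overlap.

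**Figure D4:**
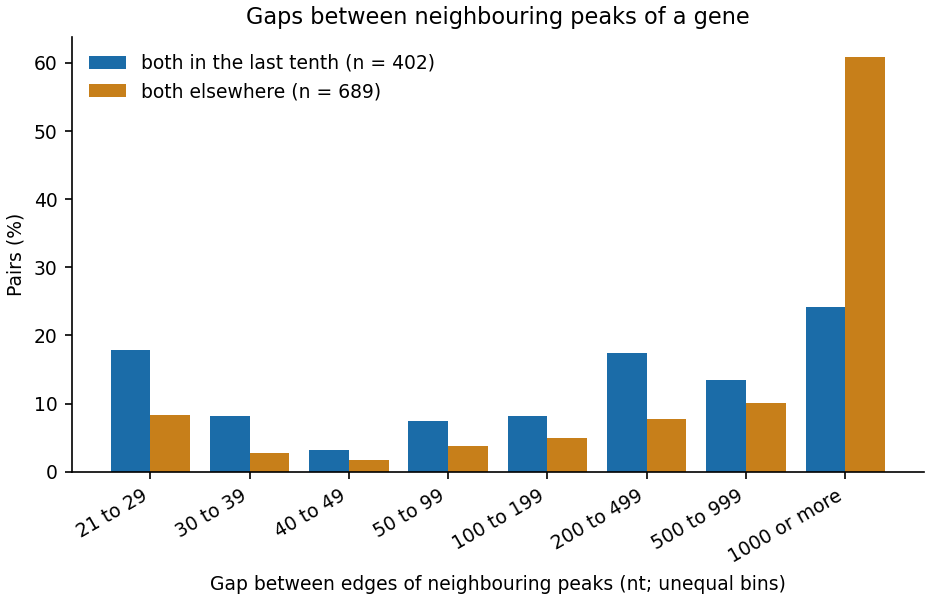
Share of neighbouring peak pairs (vertical axis, %) by the gap between their edges (horizontal axis, nt, in unequal bins) for 402 pairs of end peaks and 689 pairs elsewhere in genes. The end pairs have the larger share in every bin below 1000 nt, and no pair is closer than 21 nt.

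The smallest midpoint distances were found in Nup153, a nuclear pore gene (45.5 nt, with peaks at chr13:46683202-46683219 and chr13:46683241-46683271), in Lifr and Tmem64 (52.5 nt each), in Baz1b, a chromatin remodelling gene (53.5 nt), and in Eef1g (54.5 nt). Their gaps were 21 to 26 nt, and all 5 pairs had consecutive numbers. The largest were in Dst, a cytoskeletal linker gene (19609 nt), Kmt2c, a histone methyltransferase gene (17435 nt), Faf1 (16636 nt) and Myo10, an unconventional myosin gene (12352 nt). The Faf1 peaks were consecutively numbered across a gap of 16581 nt, whereas the numbers of the Myo10 peaks differed by 15.

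Runs of 3 or more end peaks with gaps under 500 nt numbered 60, in 57 genes, and held 210 end peaks over a median extent of 584.5 nt. The run with the most peaks, 8 over 1381 nt, lay in Il6st, and a run of 5 in Nsd1 extended over 1524 nt. In Fgf4, peaks covered 72.7% of a run of 384 nt, and in Lefty1 58.4% of 361 nt. Runs of 5 were also found in Sik1, a salt-inducible kinase gene, over 672 nt, in Slc38a2, an amino acid transporter gene, over 533 nt, and in Txnip, a gene of glucose and redox control, over 378 nt. These last 3 were named after their values were seen.

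Most genes had a single end peak. This held for 647 of 872 genes (74.2%), while 130 had 2, 52 had 3, 25 had 4 and 18 had 5 or more. Genes with 2 or more held 627 end peaks, or 49.2%. In 610 genes every placed peak was an end peak, which included 481 genes with a single peak, and 262 genes had peaks elsewhere too. The share of end peaks was 43.2% (40.3 to 46.2) for genes with 1 placed peak and 40.5% (38.3 to 42.7) for the peaks of other genes. Genes with an end peak had a median span of 36738 nt (33644 to 41726), and genes with placed peaks but no end peak 32351 nt (29010 to 38114).

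Akap12, the gene of a scaffold protein for kinase A, had the most end peaks, and all 12 of its peaks were end peaks. They lay 83.5 to 3802 nt from the end on the plus strand of chromosome 10, with widths of 44 to 189 nt, and fell into a group of 5 within 953 nt of the end, 3 between 1711.5 and 2242.5 nt and 4 between 3125.5 and 3802 nt. Il6st, the gene of gp130, the signalling subunit of the LIF receptor, had 9 of 9 peaks between 873 and 2740.5 nt, and 8 of them formed a run from chr13:112504066 to 112505446 in which peaks covered 65.2% of the bases. Its partner Lifr had 6 of 9, with 1 at 139.5 nt, 1 at 459 nt and 4 between 2428 and 2774.5 nt. The outermost end peaks of the subunits thus lay at 2740.5 and 2774.5 nt, and the stretch nearest to the end, where Lifr had 2 peaks, held none in Il6st.

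Jarid2, the gene of a Polycomb partner, had 8 end peaks of 13, from 537.5 to 18758 nt, 4 of them within 1584.5 nt. Nsd1, a histone methyltransferase gene, had 8 of 10, all between 1526 and 4824 nt, in a group of 5 and a group of 3. Slc12a7, the gene of a potassium and chloride cotransporter, had 7 of 7, of which 6 lay between 654 and 1642 nt and 1 at 6767.5 nt. Mga, the gene of a MYC network repressor, had 6 of 11, spread from 1713.5 to 9327.5 nt with none nearer. Ankrd11 had 5 of 5, from 698 to 9064 nt, and Lmtk2, a membrane kinase gene, 5 of 9, from 170.5 to 4873 nt.

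The short genes Fgf4 and Lefty1 had the most end peaks per kb among the 12. Fgf4, which encodes a growth factor and spans 3860 nt, had 5 of its 11 peaks there, at 33.5, 140, 234.5, 292 and 359 nt, or 12.95 end peaks per kb of the last 10%. Lefty1, an inhibitor of Nodal signalling with a span of 3380 nt, had 5 of 7, at 18.5, 92, 188.5, 266.5 and 332.5 nt, or 14.8 per kb, and the other 2 lay outside the last 10%, at 419.5 and 510.5 nt. Lefty1 resembles Lefty2, so the division of reads between them is uncertain. Sall1, which encodes a transcription factor with zinc fingers, had 5 of 16, at 102, 288.5, 1184, 1313 and 1378 nt, or 2.95 per kb, whereas Akap12 had 1.29 and Jarid2 0.42. The genes with 5 end peaks were 11 in number, and those named here as Ankrd11, Fgf4, Lefty1, Lmtk2 and Sall1 come first by symbol.

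**Figure D5:**
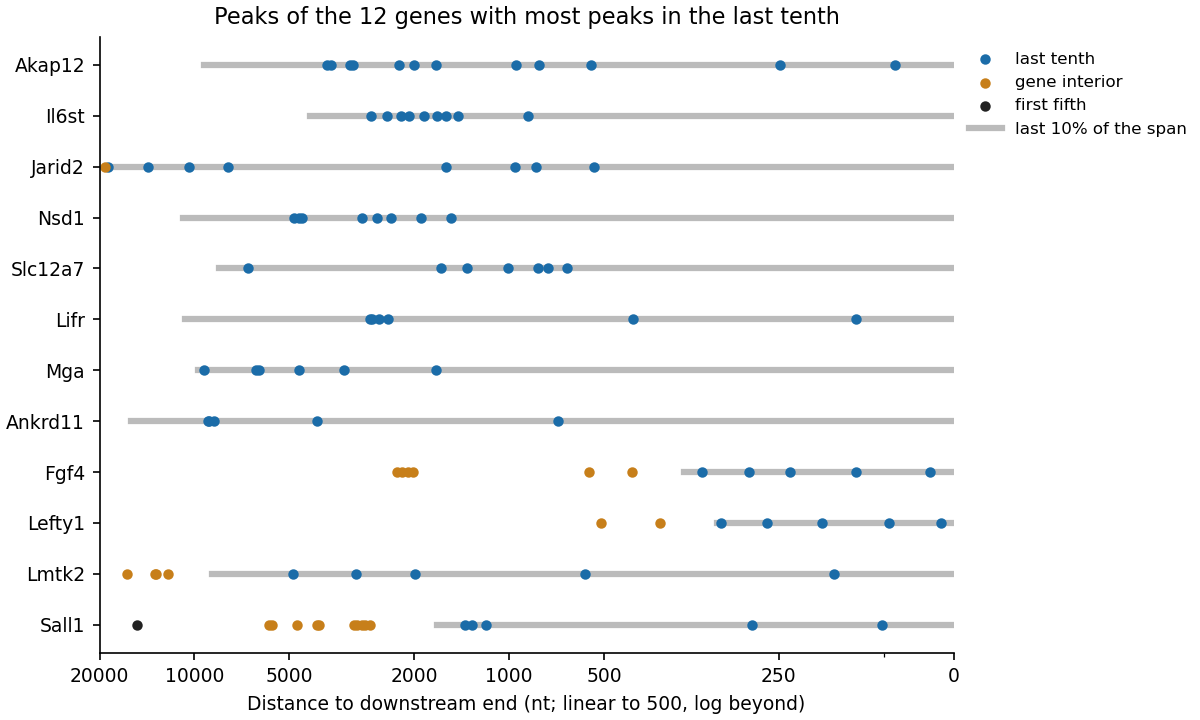
Peaks within 20000 nt of the downstream end (horizontal axis, nt, linear to 500 and logarithmic beyond) in the 12 genes with the most end peaks, 1 row per gene. Blue points are end peaks, orange points are peaks of the gene interior, the black point in Sall1 is a peak of the first 20%, and the grey bar is the last 10% of the span; Il6st has 9 points between 873 and 2740.5 nt, and Lefty1 has 5 within 332.5 nt.

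After Akap12, Il6st, Slc12a7 and Ankrd11, the next gene with end peaks alone was Ccnt2, the gene of a transcription elongation cyclin, with 4 peaks from 108 to 2292.5 nt. Il6st, Jarid2, Nsd1 and Slc12a7 are all on chromosome 13, where 95 of 166 placed peaks (57.2%, interval 49.3 to 64.9) were end peaks. Without these 4 genes, which hold 32 of the 95, the share there was 49.6% (40.6 to 58.6). The 4 were picked for their many end peaks, so the share had to fall, and no genes were left out on other chromosomes. On the other autosomes and chromosome X it was between 31.4% and 47.8%.

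Marker genes of cell types were looked up, for which the peak list gives only whether a peak was present. Of 12 embryonic stem cell markers, 8 had a placed peak and 6 an end peak, and of 8 fibroblast or feeder cell markers 0 had a peak. Of all 21887 nuclear protein-coding genes of the annotation, 1716 had a placed peak. Most genes thus have none, and 0 of 8 tells little about such cells. A gene without a peak may still be expressed. In all, 15 lists of genes were compared, and 91 of the 136 listed genes with a placed peak (66.9%) had an end peak, against 50.8% of all genes with a placed peak. The lists were drawn up with earlier results of these data known, and this share is no evidence about them. Whether a gene has an end peak also depends on its number of placed peaks. That number was not matched here or in the lists below, for which no interval was computed.

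Of 16 pluripotency factor genes with a placed peak, 10 had an end peak (62.5%), against 50.8% of all genes with a placed peak. Of their peaks 21 of 46 (45.7%) were end peaks, against 41.5% of all placed peaks. The median distance was 553.5 nt, against 1064 nt over all end peaks. Distance cannot exceed 10% of the span, and spans were not matched here or in the lists below. Besides Sall1, Tfcp2l1, a transcription factor gene of the naive state, had 3 (70, 2673.5 and 2746 nt) and Mycn, the N-MYC gene, 3 (62, 416 and 553.5 nt). Esrrb, a nuclear receptor gene, had 2 (282 and 348.5 nt), Trim71, the gene of an RNA-binding ligase and a known let-7 target, 2 (747 and 2313 nt), and Zfx, a zinc finger gene, 2 (1127 and 4311.5 nt). Sox2 had a single peak, 125 nt wide, at 64 nt.

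Chromatin regulator genes had 14 of 16 with an end peak, against 50.8% of all genes with a placed peak. Of their peaks 51 of 101 (50.5%) were end peaks, against 41.5% of all placed peaks, at a median distance of 2231.5 nt. Besides Jarid2, Nsd1 and Mga, Tet1 had 5 end peaks, in a group of 3 from 288.5 to 827 nt and a pair at 7046 and 7313.5 nt. The related Tet2 had 4, from 704.5 to 3689.5 nt, and the histone demethylase gene Kdm5b 4, from 1160.5 to 5601.5 nt. The maintenance methyltransferase gene Dnmt1 had 3 (267, 2046.5 and 2522 nt) and Arid4b 3 within 180 nt of each other (1713.5, 1782 and 1893.5 nt). The Polycomb genes Suz12 (167 and 1914.5 nt) and Mtf2 (1167 and 2165 nt), the chromatin remodelling gene Arid1a (484 and 7524.5 nt) and the acetyltransferase gene Kat6a (2097 and 2155 nt) had 2 each.

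In the LIF and FGF list, 9 of 11 genes with a placed peak had an end peak, against 50.8% of all such genes. Of the peaks in this list 26 of 41 (63.4%) were end peaks, against 41.5% of all placed peaks. Il6st, Lifr and Fgf4 held 20 of the 26, and Stat3, the transcription factor below the LIF receptor, had 1, at 2754.5 nt. In the Nodal, TGF-beta and BMP list 4 of 11 genes had one (36.4%), against 50.8% of all genes with a placed peak. End peaks were 9 of its 21 peaks (42.9%), against 41.5% of all placed peaks. Lefty1 held 5 of the 9, and Smad7, the inhibitory SMAD gene, 2 (190 and 1492 nt). Nodal itself had a single peak, 110 nt wide, at 54.5 nt.

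In the WNT list 7 of 9 genes had an end peak, against 50.8% of all genes with a placed peak. End peaks were 16 of its 36 peaks (44.4%), against 41.5% of all placed peaks, at a median distance of 2531.5 nt. Tnks2, a tankyrase gene, had 5, from 2380 to 4687.5 nt. Apc, the gene of the beta-catenin destruction scaffold, had 3, none nearer than 7353 nt, and Csnk1a1, the casein kinase gene, 3 (234, 795 and 1951 nt). Lrp6 had 2, the peak whose sequence is given above and 1 at 8237.5 nt. Ctnnb1, the beta-catenin gene, had 1 end peak of 7, at 50.5 nt.

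Of 9 cell cycle genes with a placed peak, 4 had an end peak (44.4%), against 50.8% of all genes with a placed peak. Of their peaks 7 of 13 (53.8%) were end peaks, against 41.5% of all placed peaks. Among them were Wee1, a kinase gene that holds back mitosis, with 3 (459, 649 and 765.5 nt), and Cdkn1a, the p21 gene, with 2 (180 and 584 nt). Of 9 apoptosis genes 8 had an end peak, against 50.8% of all genes with a placed peak. Of their peaks 16 of 26 (61.5%) were end peaks, against 41.5% of all placed peaks. Mdm4, a p53 inhibitor gene, had 3 (1266.5, 2036.5 and 2389.5 nt), and Ei24, a p53-induced gene, had 3 (145, 758 and 989.5 nt) that were wide, from 141 to 256 nt. Bcl2l11, the BIM gene, had 2 (164.5 and 2144.5 nt), and Mcl1, a survival gene, 2 (91 and 571 nt). Of 8 genes with a placed peak in the list of miR-290/miR-302 family targets, 7 had an end peak, against 50.8% of all genes with a placed peak. These 7 were Lefty1, Ei24, Arid4b, Wee1, Cdkn1a, Fbxl5 and Smarcc2. End peaks were 18 of the 24 peaks in the list, against 41.5% of all placed peaks. The list was chosen for known targeting, and its difference from other genes was not tested.

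Matrix and adhesion genes had an end peak in 10 of 10, against 50.8% of all genes with a placed peak. Yet 19 of their 47 peaks (40.4%) were end peaks, against 41.5% of all placed peaks. Fn1, the fibronectin gene, had 2 of 23 (753 and 5118.5 nt). Lamc1, a laminin gene, had 4 of 4, from 114 to 1432.5 nt, Agrn, the agrin gene, 3 of 3 (150.5, 714 and 877.5 nt), Cdh1, the E-cadherin gene, 3 of 5 (321, 861 and 6432 nt), and Itga5, an integrin gene, 2 of 3 (28.5 and 840 nt). The median width of the 19 end peaks in this list was 90 nt, against 63 nt over all end peaks. Across the lists this median ran from 48 nt (Nodal, TGF-beta and BMP, 9 end peaks) to 91 nt (cell cycle, 7 end peaks). Differences in width between lists were not tested.

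In 4 lists end peaks were a smaller share of the peaks than the 41.5% over all placed peaks by over 10 percentage points. They were 8 of 32 in the miRNA pathway, 22.9% for splicing and RNA binding (8 of 35), 27.0% for translation factors (10 of 37) and 27.3% for ubiquitin ligases (12 of 44). Tnrc6a, the gene of the GW182 partner of AGO2, had 3 of 6 (1729, 2168.5 and 5419.5 nt). Srrm2, a splicing factor gene, had 3 of 15 (704.5, 3093 and 3298.5 nt). Eef1g had 3 of 3 (12, 66.5 and 532 nt) and Pabpc1, the poly(A)-binding protein gene, 2 of 5 (312 and 952 nt). Huwe1 had 4 of 13, from 2804 to 12655 nt, and Nedd4, also a ubiquitin ligase gene, 3 of 10 (1831.5, 2592 and 2692.5 nt).

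The strand of the gene was not part of the definition, and it was known from RefSeq promoter windows for 1027 end peaks (80.6%). Of these, 1024 lay on the strand of the gene and 3 on the opposite strand (0.292%, interval 0.0603 to 0.851), against 21 of 1437 peaks elsewhere (1.46%, 0.907 to 2.23). The 3 were in Aida, in Ass1, the argininosuccinate synthase gene, and in Gm52481, and were named after their values were seen. For them the downstream end in the direction of the peak is the start of the gene. By the same reading, an opposite-strand peak near the true end of a gene is counted among the peaks elsewhere. The definition thus shapes this comparison. End peaks numbered 673 on the plus and 601 on the minus strand. A second annotated gene covered the midpoint of 46 end peaks (3.61%, 2.66 to 4.79), a long noncoding RNA in each case. The share was 3.58% for interior peaks (2.71 to 4.62) and 6.52% for the first 20% (3.70 to 10.5, 15 peaks). Another gene lay within 1000 nt of 163 end peaks (12.8%, 11.01 to 14.8), of 10.7% (9.18 to 12.3) of interior peaks and of 16.1% (11.6 to 21.5) of those of the first 20%, and these intervals overlap.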

How the data were processed

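Per the labels' protocols, Spy3-AGO2 was pulled down on a SpyCatcher3 resin, and its RNA was taken from a gel slice, ligated to adapters with random bases and sequenced. The submitters' processing notes name, without a role, the mm10 build, STAR 2.5.2a, Bowtie2 2.4.2, cutadapt 2.10, UMI-tools, deepTools 3.1.3 and DESeq2 1.36.0. How peaks were called, at what threshold and whether against the input is not stated in these sources. The authors deposited a peak list whose score was 0 throughout, and raw counts of 1978 mature miRNAs per miRNA library, with totals of 12562727 and 22908172.

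Midpoints were placed on gene spans of RefSeq GRCm38.p6, the assembly of mm10. That table gives no strand, exons or untranslated regions. Coordinates count from 1, and all distances and gaps are genomic, with any introns included. Medians have exact order-statistic intervals and shares Clopper-Pearson intervals at 95%, which cover counting error only. Placement was tested on simulated peaks.

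End peaks and gene lists were chosen with earlier results of these data known. Named are the 12 genes with most end peaks, the 5 widest, nearest and farthest end peaks, the 5 closest and most distant pairs, 5 genes with end peaks alone, 3 peaks on each side of 90%, and every listed gene with at least 2 end peaks. Listed genes with 1 end peak, Sik1, Slc38a2, Txnip, Rbfox2, Aida and Ass1 were named after their values were seen. Some genes that this rule takes are counted but not reported here by name. Without a genome, seed matches were searched only inside promoter windows, not across the end peaks. Python 3.11.15, numpy 2.4.6, pandas 2.3.3, scipy 1.17.1 and matplotlib 3.10.9 were used.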

Additional observations from a re-analysis of the deposited data

How the results depend on the processing

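The number of end peaks stayed within 1.5 times the reported 1274 under 10 alternatives (878 to 1659), and so did the number of genes (626 to 1078). Width moved beyond its interval under 1 of 11 alternatives: with peaks of a gene under 50 nt apart joined, the median was 70 nt, against 59 nt in the gene interior and 52 nt in the first 20%. The median distance to the end was 1398.5 nt from 80% of the span on, 807 nt from 95% on, 708.5 nt for all peaks within 2000 nt of the end, and 1611.5 nt in genes of 20000 nt or more, a setting chosen after seeing the data. The other 7 alternatives stayed within its interval. The median midpoint distance between neighbours depended most on the setting: 466 nt from 80% on, 294 nt from 95% on, 239 nt within 2000 nt of the end, 481.75 nt in genes of 20000 nt or more, 676 nt with near peaks joined, which removes the smallest gaps by construction, 270.5 nt as a gap between edges, and 960.5 nt when only 1 of the pair had to be an end peak. The number of listed genes with an end peak was 105 from 80% on and 78 from 95% on, and the summed share of the 5 miRNAs was 46.5% or 47.2% with either replicate alone; these settings were added after seeing the data. No paired analysis was possible because the peak list has no value per replicate. Leaving out a target replicate and counting seed matches over all peaks were not run, since the list does not divide by library and no genome was used. With a score of 0 throughout, peaks could not be filtered by strength, and the depth behind each is not known here.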
